A study of Mus musculus with 10 samples.

Results

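The genes of serine synthesis and of the folate one-carbon cycle were followed in mouse liver with and without hepatocyte *Ndrg3*. They comprise 10 of the 24052 gene symbols counted: the serine synthesis genes *Phgdh*, *Psat1* and *Psph*, the serine hydroxymethyltransferases *Shmt1* and *Shmt2*, the formate and methylene-folate genes *Mthfd1*, *Mthfd1l* and *Mthfd2*, and the formyl-folate dehydrogenases *Aldh1l1* and *Aldh1l2*. The rule behind this choice names a pathway and uses no measured value. The genes were, however, chosen with earlier results of these data known. RNA was sequenced from 10 livers of mice labelled C57BL/6 and fed ad libitum, 5 of wild-type littermates and 5 of Ndrg3 LKO mice, with 1 library per liver. In the Ndrg3 LKO mice, exon 4 of *Ndrg3* is flanked by loxP sites and removed by Cre under the albumin promoter. The study describes the disruption as specific to hepatocytes. Whether all other cell types of the liver keep the gene was not tested here. Whether the wild-type littermates carried floxed alleles or Cre was not given in the sources used here. The study's methods describe males as the default, and they give the age of the livers as 8 to 10 weeks, whereas a figure legend on the same livers gives 10 to 12 weeks. The age and litter of each single mouse are not labelled.

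Serine is built from the glycolytic intermediate 3-phosphoglycerate in a chain of steps catalysed in turn by PHGDH, PSAT1 and PSPH. Serine hydroxymethyltransferases then pass a carbon of serine to tetrahydrofolate and leave glycine. The folate-bound carbon is oxidised to the formyl level and released as formate in mitochondria, taken up by folate again in the cytosol, and used there for purines, thymidylate and the remethylation of homocysteine. Mitochondria and cytosol hold parallel sets of these enzymes, and liver is a main site of both folate storage and the disposal of surplus one-carbon units.

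Gene counts summed to 20872262 to 24747870 in the wild-type libraries and to 23474693 to 30450057 in the Ndrg3 LKO libraries. Values are counts scaled to a common library size (CPM) after scaling by the trimmed mean of M-values (TMM), and 3 counts, taken as the smallest signal a library can show, corresponded on this scale to 0.0727 to 0.179 CPM, depending on the library. *Ndrg3* itself lay at 15.9 to 21.9 CPM in wild-type and at 7.07 to 9.16 CPM in Ndrg3 LKO livers, 2.29-fold lower, with no overlap. Counts cover the whole gene and can include transcripts that lack exon 4, so they do not measure how complete the deletion was. One liver stood apart from its group. On the first principal component of all tested genes, with 68.7% of the variance, the wild-type group lay from -49.9 to -43.1 and Ndrg3 LKO replicates 1 to 4 lay from 51.1 to 56.6. Ndrg3 LKO replicate 5 was at 14.1, although its *Ndrg3* level of 8.25 CPM was within the range of the other knockouts. The 20 most abundant genes held 26.2% to 28% of all counts per wild-type liver and 16.3% to 26.6% per Ndrg3 LKO liver, with the upper end in replicate 5. The summed level of 6 hepatocyte markers was 120619 to 158902 CPM in wild-type livers, 29588 to 40466 CPM in Ndrg3 LKO replicates 1 to 4 and 140015 CPM in replicate 5. *Alb* made up most of this sum. In replicate 5, *Alb* and *Ttr* were within the wild-type range and *Apoc3* was above it. *Hnf4a* (362 CPM), *Fgb* (2522 CPM) and *Apoa1* (13994 CPM) were below every wild-type liver there. The lowest wild-type values were 589, 3596 and 16761 CPM. The part of replicate 5 in the results was followed by leaving that liver out.

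Of the 10 genes, 9 reached 1 CPM in at least 5 livers and were tested among 11208 genes. In Ndrg3 LKO livers, 5 of them were higher and 2 were lower by edgeR's quasi-likelihood test with an adjusted p under 0.05, a call that 25.6% of all tested genes received as higher and 23.0% as lower. *Phgdh*, *Psat1*, *Psph*, *Mthfd1l* and *Mthfd2* rose, *Shmt2* and *Aldh1l1* fell, and *Shmt1* and *Mthfd1* did not pass the test. *Aldh1l2* missed the filter. *Phgdh* passed it only through the Ndrg3 LKO livers, with no wild-type liver at 1 CPM, and *Psat1* reached that level in 1 wild-type liver, so that a difference was built into their passing. In bulk liver RNA, a smaller number of cells of a type and less RNA per cell cannot be told apart.

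**Figure D1:**
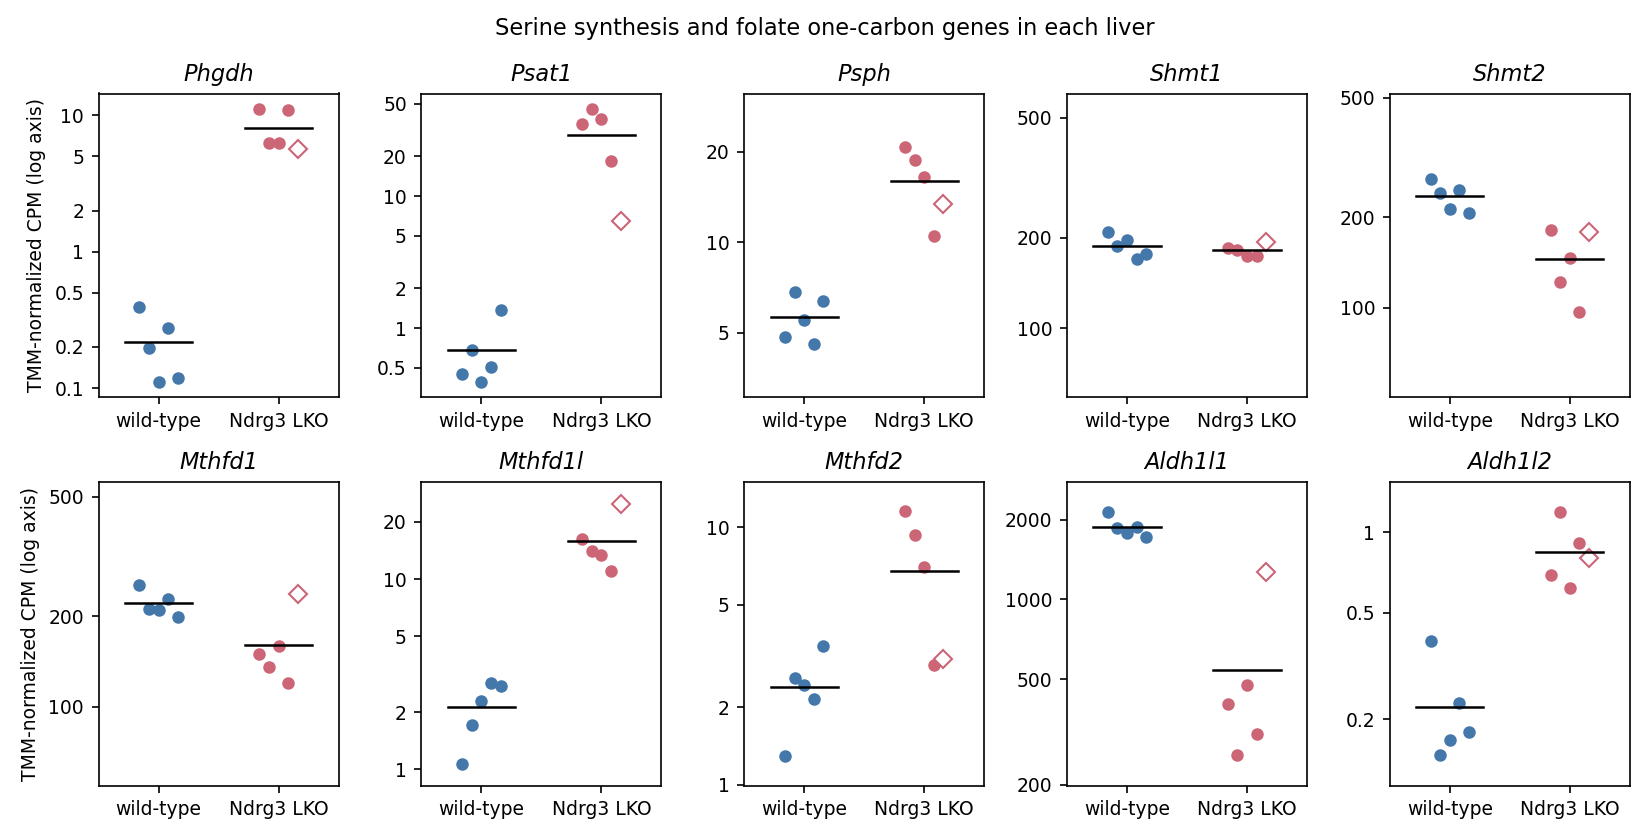
TMM-normalized CPM of each of the 10 genes in each liver, on a log axis of its own for each gene, with wild-type livers at the left and Ndrg3 LKO livers at the right of each panel. Each point is 1 liver, the open diamond is Ndrg3 LKO replicate 5 and the horizontal line is the mean of the 5 livers of a group. The groups do not overlap for *Phgdh*, *Psat1*, *Psph*, *Shmt2*, *Mthfd1l*, *Aldh1l1* and *Aldh1l2*, and they overlap for *Shmt1*, *Mthfd1* and *Mthfd2*.

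The 3 genes of serine synthesis stand first because all of them rose, and their promoters are shown so that their start sites can be compared. The sequences come from RefSeq, run from 250 bases before to 50 bases after the start site, 5′ to 3′ on the strand of the gene, and were found as exact matches in mm9, at chr3:98143843-98144142 for *Phgdh*, chr19:15999500-15999799 for the first of the 2 *Psat1* starts and chr5:130293080-130293379 for *Psph*, each on the minus strand. Capitals mark matches to the antioxidant response element written as TGACNNNGC, on either strand.
Phgdh: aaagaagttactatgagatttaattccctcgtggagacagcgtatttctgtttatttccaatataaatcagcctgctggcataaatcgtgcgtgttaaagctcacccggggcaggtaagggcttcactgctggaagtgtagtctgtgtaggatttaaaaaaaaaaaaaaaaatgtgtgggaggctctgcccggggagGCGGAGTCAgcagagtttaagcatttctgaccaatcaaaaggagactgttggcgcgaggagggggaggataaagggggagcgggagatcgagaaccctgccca
Psat1: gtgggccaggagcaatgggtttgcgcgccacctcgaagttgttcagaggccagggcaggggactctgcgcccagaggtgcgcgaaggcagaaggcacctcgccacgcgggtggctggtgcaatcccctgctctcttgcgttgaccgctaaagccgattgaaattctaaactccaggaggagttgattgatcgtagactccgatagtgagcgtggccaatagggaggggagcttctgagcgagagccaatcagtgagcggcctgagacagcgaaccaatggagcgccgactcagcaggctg
Psph: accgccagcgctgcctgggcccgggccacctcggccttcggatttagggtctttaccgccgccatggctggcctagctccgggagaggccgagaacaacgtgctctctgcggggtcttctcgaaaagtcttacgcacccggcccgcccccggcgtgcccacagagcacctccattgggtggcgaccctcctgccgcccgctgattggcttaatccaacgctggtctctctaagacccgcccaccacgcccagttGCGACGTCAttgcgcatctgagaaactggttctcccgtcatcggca
The match of *Phgdh* lay upstream of the start site and that of *Psph* began at base 5 after it, both on the reverse strand. Neither *Psat1* start held one. This motif was present in 12.5% of 27025 mouse promoters of the same length. The composite ATF4 and C/EBP motif TGATGNAA (4.06% of promoters) and the E-box CACGTG (7.24%) were searched in the same way, and neither occurred in any of the 10 promoters found for 9 of the 10 genes. The first and the second of these motifs share their opening letters TGA, the E-box is its own reverse complement, and a missing match says only that these letters are not in this window.

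*Phgdh* encodes the dehydrogenase that commits 3-phosphoglycerate to serine. In mm9 its locus spans 98117093 to 98143913 of chromosome 3, minus strand. It was near the detection limit in wild-type liver, at 0.393, 0.195, 0.111, 0.276 and 0.119 CPM in replicates 1 to 5, and stood at 11.1, 6.30, 6.25, 10.9 and 5.61 CPM in Ndrg3 LKO replicates 1 to 5. These levels rest on 2 to 7 counts per wild-type liver, 21 in all with an exact Poisson 95% interval of 13 to 32.1 that covers counting error only, against 119 to 386 counts per Ndrg3 LKO liver. Wild-type replicates 3 and 5 had 2 counts each, below the 3 counts taken as the smallest signal. Every Ndrg3 LKO liver was far above every wild-type liver. The log2 fold change was 5.16 (SE 0.36), or 35.7-fold, with an adjusted p of 3.3e-06 by edgeR. In the fit without the filter it was 5.12 (SE 0.36, adjusted p = 1.09e-06), and without Ndrg3 LKO replicate 5 it was 5.25. The size of the fold depends on how counts near 0 are treated: with limma it was 2.84 on log2(CPM + 1) and 1.3 on log2(CPM + 5).

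*Psat1*, the aminotransferase of the next step, spans 15979168 to 16021827 on the minus strand of chromosome 19. Both RefSeq promoters of *Psat1* lie inside this span and not at its upstream end of 16021827. Wild-type livers had 0.449, 0.684, 0.390, 0.505 and 1.37 CPM, and Ndrg3 LKO livers 35.1, 46.1, 38.1, 18.6 and 6.51 CPM. The lowest knockout, replicate 5, was still above the highest wild-type liver, but the knockouts spread widely, with a coefficient of variation of 55.5%. The rise was 42.9-fold, a log2 fold change of 5.42 (SE 0.55, adjusted p = 2.87e-05, edgeR), and 5.67 without replicate 5. With limma on log2(CPM + 1) and log2(CPM + 5) it was 3.93 and 2.40. The predicted gene *Gm3329* is annotated on the opposite strand of *Psat1*.

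*Psph*, whose product removes the phosphate in the last step, lies on the minus strand of chromosome 5 (130271434 to 130293129) and was readily detected in wild-type liver. Its levels were 4.83, 6.84, 5.51, 4.59 and 6.37 CPM in wild-type and 20.8, 18.8, 16.5, 10.5 and 13.4 CPM in Ndrg3 LKO livers, without overlap. The change was 2.84-fold, smaller than those of the other serine synthesis genes, with a log2 fold change of 1.51 (SE 0.20, adjusted p = 1.59e-04, edgeR).

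The serine hydroxymethyltransferases did not move alike. *Shmt1*, the cytosolic enzyme (chromosome 11, 60601606 to 60625220, minus strand), had 209, 187, 196, 170 and 177 CPM in wild-type and 185, 182, 174, 173 and 193 CPM in Ndrg3 LKO livers. The ranges lay within each other, and the log2 fold change of -0.050 (SE 0.11) did not pass the test (adjusted p = 0.734, edgeR). *Shmt1* also had the least spread among knockouts of the 10 genes, with a coefficient of variation of 4.61%, and replicate 5 did not stand out. *Smcr8*, on the opposite strand at this locus, had a mean of 36.8 CPM in wild-type and 30.9 CPM in Ndrg3 LKO livers (adjusted p = 0.0796, edgeR), and the strand setting of the counting was not stated.

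*Shmt2*, the mitochondrial enzyme (chromosome 10, 126954195 to 126959491, minus strand), fell from 268, 240, 213, 246 and 206 CPM in wild-type livers to 182, 121, 147, 96.9 and 178 CPM in Ndrg3 LKO livers. All knockouts were below all wild-type livers. Its log2 fold change was -0.70 (SE 0.18, adjusted p = 0.00775, edgeR), or 1.62-fold lower. On library size alone, without TMM, the median of all genes moved up by 0.56 on the log2 scale, 85.2% of the changed genes were higher in place of 52.6%, and *Shmt2* was at -0.20 with an adjusted p of 0.328 by edgeR. Relative to that median it was at -0.76. *Ndufa4l2*, which overlaps *Shmt2* on the other strand, had means of 1.56 and 1.35 CPM.

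*Mthfd1* encodes the trifunctional cytosolic enzyme that takes up formate and interconverts folate-bound carbon units (chromosome 12, 77356219 to 77420807, plus strand). It stood at 255, 211, 210, 229 and 200 CPM in wild-type and at 150, 136, 160, 120 and 237 CPM in Ndrg3 LKO livers. Replicates 1 to 4 of the knockout were below all wild-type livers, and replicate 5 was above all but the highest of them. The log2 fold change of -0.46 (SE 0.18) missed the threshold with an adjusted p of 0.0516 by edgeR. Without replicate 5 it was -0.65 with an adjusted p of 0.00127.

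*Mthfd1l*, the mitochondrial enzyme that releases formate, lies on the minus strand of chromosome 10 (6179460 to 6373423) and rose in every knockout. Wild-type livers had 1.07, 1.71, 2.28, 2.85 and 2.74 CPM, and Ndrg3 LKO livers 16.3, 14.0, 13.4, 11.1 and 24.9 CPM. The groups did not overlap, and here replicate 5 was the highest knockout. The rise was 7.44-fold, a log2 fold change of 2.90 (SE 0.29, adjusted p = 2.69e-05, edgeR), and 1.53 with limma on log2(CPM + 5).

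*Mthfd2*, the mitochondrial dehydrogenase and cyclohydrolase known from embryonic and proliferating tissue, lies on the minus strand of chromosome 6 (83255685 to 83267600). Its levels were 1.29, 2.59, 2.45, 2.16 and 3.45 CPM in wild-type and 11.5, 9.35, 6.98, 2.91 and 3.06 CPM in Ndrg3 LKO livers. Replicates 1 to 3 of the knockout were above every wild-type liver, while replicates 4 and 5 were within the wild-type range. The log2 fold change was 1.51 (SE 0.40, adjusted p = 0.00899, edgeR), and a 2-sided exact permutation test over all splits of the livers gave p = 0.0318.

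*Aldh1l1*, a cytosolic enzyme abundant in liver that oxidises surplus formyl-folate to carbon dioxide, showed the largest fall of the 10 genes (chromosome 6, 90436421 to 90550197, plus strand). It had 2132, 1854, 1777, 1874 and 1725 CPM in wild-type livers and 405, 258, 475, 310 and 1266 CPM in Ndrg3 LKO livers. All knockouts were below the wild-type range, but replicate 5 was nearer to it than to the other knockouts, and the coefficient of variation of the knockouts was 76.0%. The log2 fold change was -1.79 (SE 0.38, adjusted p = 0.00277, edgeR), 3.45-fold lower. Without replicate 5 it was -2.38 (SE 0.20, adjusted p = 2.09e-06).

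*Aldh1l2*, its mitochondrial counterpart (chromosome 10, 82950195 to 82996885, minus strand), was low in both groups. It gave 7, 3, 3, 5 and 3 counts in wild-type livers, at or just above the floor of 3 counts, and 24, 49, 24, 32 and 17 counts in Ndrg3 LKO livers. In CPM these were 0.147 to 0.393 and 0.618 to 1.19, without overlap, and the exact permutation test gave p = 0.00794, the smallest that 5 against 5 livers allow. A fit without the filter on low counts, over 17746 genes of which 18.5% were called higher and 16.4% lower, put its log2 fold change at 1.87 (SE 0.38, adjusted p = 0.00192, edgeR). In that fit 6 of the 10 genes were higher and 3 lower, *Mthfd1* being the additional fall at -0.50 (adjusted p = 0.0440). Among the 9 tested genes, 6 had groups that did not overlap, as did 31.5% of all tested genes.

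**Figure D2:**
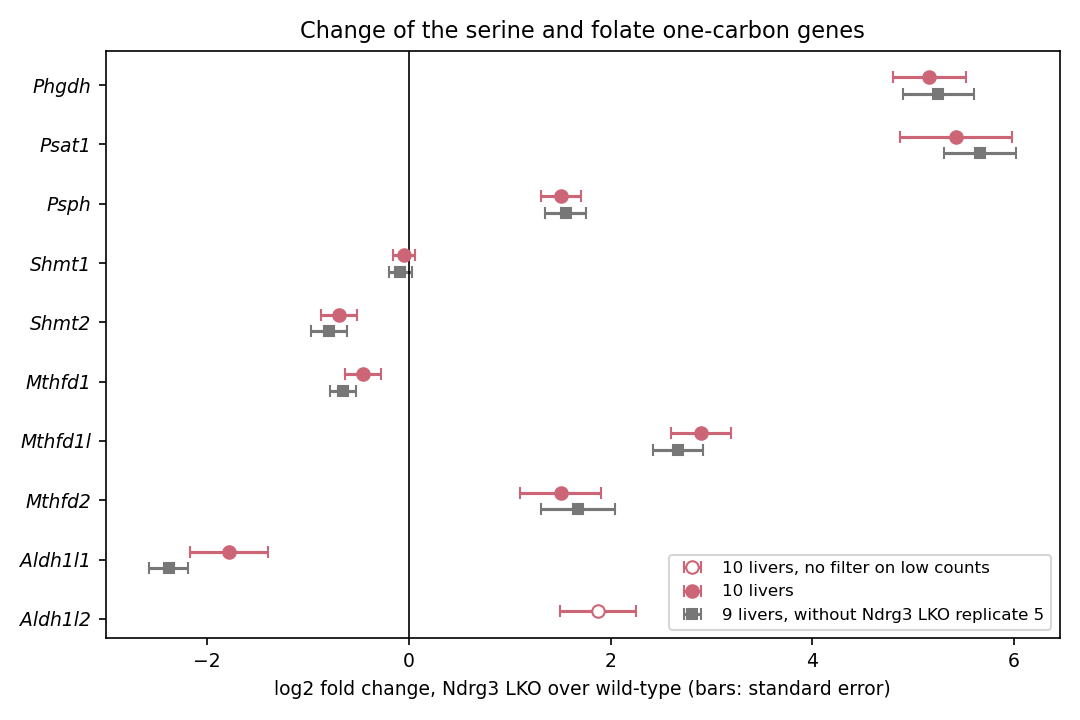
Log2 fold change of Ndrg3 LKO over wild-type livers for each gene, on the horizontal axis, with its standard error as the bar. Circles are the 10 livers, squares the 9 livers without Ndrg3 LKO replicate 5, and the open circle is *Aldh1l2* in the fit without a filter on low counts. *Phgdh* and *Psat1* lie above 5, *Shmt1* lies near 0 in both fits, and *Aldh1l1* moves from -1.79 to -2.38 without replicate 5.

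Levels of different genes were compared as TMM-normalized CPM per kilobase of annotated exon. In wild-type livers *Aldh1l1* led with 415 ± 34.8 (SD, n = 5), followed by *Shmt2* with 103 ± 11.1, *Mthfd1* with 66.4 ± 6.52 and *Shmt1* with 48.4 ± 3.99. *Psph* at 3.10 and *Mthfd2* at 0.877 came next. Neighbours in this order down to *Mthfd2* did not overlap. Below them, *Mthfd1l* (0.480), *Psat1* (0.160), *Phgdh* (0.0880) and *Aldh1l2* (0.0297) each overlapped with the gene before. In Ndrg3 LKO livers the same 4 genes led, at 120 ± 91.4 for *Aldh1l1*, 63.6 ± 16 for *Shmt2*, 48.3 ± 13.6 for *Mthfd1* and 46.7 ± 2.15 for *Shmt1*, and the ranges of neighbours overlapped. Within single livers *Aldh1l1* was above *Shmt2* and *Shmt2* above *Mthfd1* in 5 of 5 knockouts, and *Mthfd1* was above *Shmt1* in 2 of 5. *Psph* (8.80), *Psat1* (6.79), *Mthfd1l* (3.59), *Phgdh* (3.23) and *Mthfd2* (2.48) then overlapped from one to the next, and *Aldh1l2* remained lowest at 0.112. Even after their rise, *Psat1* and *Phgdh* stayed below *Shmt1* per kilobase in every liver.

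Each cytosolic gene was set against 1 mitochondrial partner. For the trifunctional *Mthfd1* this was *Mthfd1l*, and the mitochondrial dehydrogenase and cyclohydrolase gene *Mthfd2* was not part of that ratio. The log2 ratio of the counts of a pair was taken within each liver, a measure that does not depend on scaling between libraries. For *Shmt2* over *Shmt1* it was 0.36, 0.36, 0.12, 0.53 and 0.22 in wild-type and -0.029, -0.59, -0.25, -0.84 and -0.11 in Ndrg3 LKO livers. *Shmt2* thus made up 52.1% to 59.2% of the counts of the pair in wild-type livers and 35.9% to 49.5% in the knockouts, a ratio 1.6-fold lower. The other ratios moved the opposite way. The ratio of *Mthfd1l* to *Mthfd1* went from -6.76 ± 0.68 to -3.35 ± 0.15 (SD, n = 5), 10.6-fold higher, with *Mthfd1l* at 0.417% to 1.35% of the pair in wild-type and at 7.73% to 9.78% in Ndrg3 LKO livers. The ratio of *Aldh1l2* to *Aldh1l1* went from -12.95 ± 0.41 to -9.09 ± 1.09, 14.5-fold higher, with 3 to 7 *Aldh1l2* counts per wild-type liver. Groups did not overlap in any of the 3 ratios, and a 2-sided exact permutation test gave p = 0.00794 for each, also after Benjamini-Hochberg adjustment over the 3 ratios. With any one liver left out, the differences ranged from -0.76 to -0.56, from 3.13 to 3.55 and from 3.52 to 4.23 on the log2 scale.

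**Figure D3:**
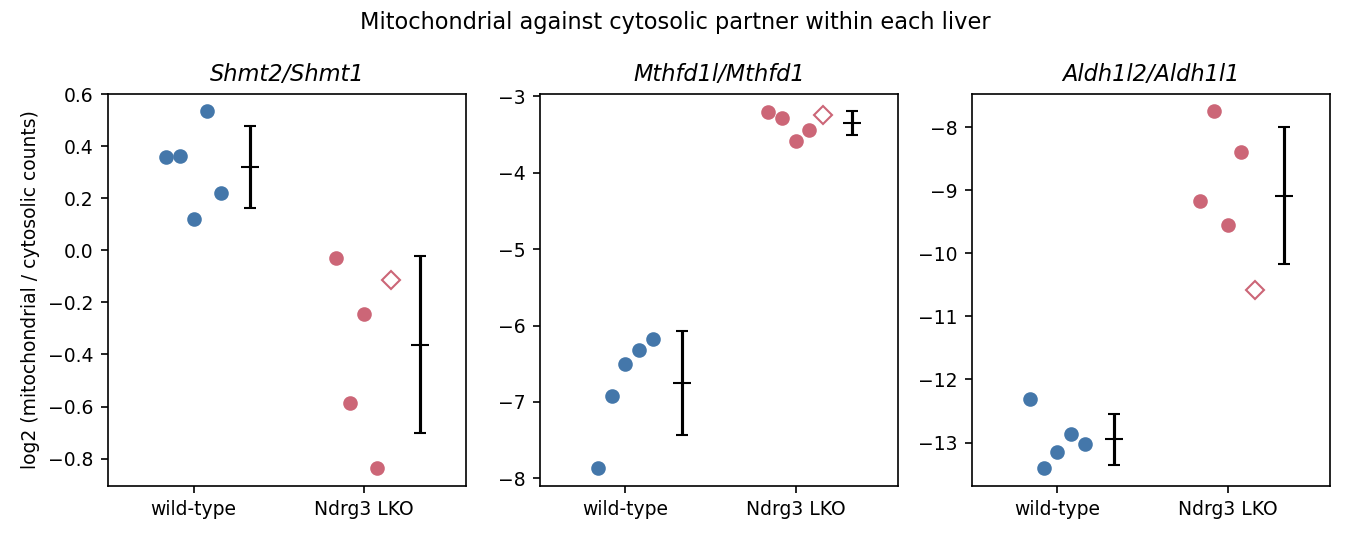
Log2 ratio of the counts of the mitochondrial gene to those of its cytosolic partner, on the vertical axis, in each liver (0.5 counts added to each). Points are livers, the open diamond is Ndrg3 LKO replicate 5, and the bars beside them show mean ± SD of the 5 livers. *Shmt2* to *Shmt1* is lower in all Ndrg3 LKO livers, and the other ratios are higher in all of them.

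Genes around these 10 in the pathway were read from lists and are given as counts, beside a median log2 fold change of 0.031 over all tested genes. Of all tested genes, 25.6% were called higher and 23.0% lower, the shares beside which the counts of each list stand. Of 8 genes of glycine cleavage and serine or glycine breakdown, none rose and 2 fell, with a median of -0.24. *Gldc*, the glycine decarboxylase of the cleavage system, fell from 133 to 265 CPM to 44.7 to 116 CPM, by 1.29 on the log2 scale (SE 0.26, adjusted p = 0.00188, edgeR), and *Srr*, serine racemase, from 27.7 to 31.8 CPM to 4.30 to 18.4 CPM, by 1.83 (SE 0.35, adjusted p = 0.00136). *Sds*, serine dehydratase, which turns serine into pyruvate, was named after its values were seen. It had 432 to 630 CPM in wild-type livers, 102 to 172 CPM in Ndrg3 LKO replicates 1 to 4 and 1849 CPM in replicate 5. Its log2 fold change was -0.14 (adjusted p = 0.888, edgeR) over 10 livers and -1.96 (adjusted p = 8.64e-06) without replicate 5, so that 1 liver decided this call.

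Among 6 tested genes of serine and glycine transport, 2 rose and 1 fell (median 0.031). *Slc1a5*, a transporter of neutral amino acids, rose from 2.0 to 4.92 CPM to 6.27 to 15.1 CPM (log2 fold change 1.62, SE 0.29, adjusted p = 8.84e-04, edgeR), and the glycine transporter *Slc6a9* fell from 49.9 to 96.6 CPM to 5.76 to 14.9 CPM (log2 fold change -2.63, SE 0.27, adjusted p = 2.95e-05). The other call was the serine and alanine transporter *Slc1a4*, with 1.35 to 2.23 CPM in wild-type and 0.997 to 7.04 CPM in Ndrg3 LKO livers, which overlapped. Its log2 fold change was 1.10 (SE 0.42, adjusted p = 0.0452, edgeR). The call was lost without the filter on low counts (adjusted p = 0.0557) and without wild-type replicate 1, 2, 4 or 5 or Ndrg3 LKO replicate 1, 2 or 3 (0.0507 to 0.130). Of 6 tested genes of folate uptake and storage, 1 rose and 1 fell (median 0.21). The reduced folate carrier *Slc19a1* rose by 0.59 on the log2 scale (adjusted p = 0.0140, edgeR), and *Fpgs*, which adds the glutamate tail that holds folate in the cell, fell from 157 to 273 CPM to 66.9 to 104 CPM (log2 fold change -1.40, SE 0.18, adjusted p = 1.21e-04).

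Of 7 tested genes of folate interconversion, 1 rose and 2 fell (median -0.33). *Mtrr*, which reactivates methionine synthase, had a log2 fold change of 0.66 (adjusted p = 0.0242, edgeR). *Ftcd*, which feeds histidine carbon into folate, fell by 1.49 (adjusted p = 0.00482), and *Mthfs*, which returns 5-formyl-folate to the pool, by 0.80 (adjusted p = 0.0314). *Mtrr* missed the threshold without wild-type replicate 1 or 3 or Ndrg3 LKO replicate 2 (adjusted p of 0.0619, 0.0623 and 0.0510), and *Mthfs* without wild-type replicate 1 or 5 or any of Ndrg3 LKO replicates 1 to 4 (0.0516 to 0.0751). The mitochondrial dehydrogenases that load folate during choline breakdown both fell. *Dmgdh* had 479 to 643 CPM in wild-type and 112 to 170 CPM in Ndrg3 LKO livers (log2 fold change -1.79, SE 0.16, adjusted p = 1.22e-05, edgeR), and *Sardh* 1087 to 1314 and 490 to 986 CPM (log2 fold change -0.98, adjusted p = 0.00294). Among 7 genes of purine synthesis and of formylation for mitochondrial translation, 2 rose and 1 fell (median 0.21). The genes of this list whose enzymes use formyl-folate, *Gart*, *Atic* and *Mtfmt*, did not pass the test (adjusted p of 0.109, 0.829 and 0.0893, edgeR). *Ppat*, which starts purine synthesis, rose by 0.87 (adjusted p = 0.00396, edgeR), as did *Pfas*, and *Paics* fell by 0.69 (adjusted p = 0.00310). Their enzymes belong to other steps of purine synthesis.

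The transcription factor ATF4 is known to drive serine synthesis genes under amino acid or mitochondrial stress, and 14 genes of a list of ATF4 and its targets were tested. Of these, 5 rose and 1 fell, with a median of 0.33, where 25.6% of all tested genes were called higher and 23.0% lower. *Asns*, asparagine synthetase, went from 1.07 to 3.99 CPM to 27.2 to 63.0 CPM (log2 fold change 4.10, SE 0.35, adjusted p = 1.03e-05, edgeR), and the stress gene *Nupr1* from 0.488 to 1.11 CPM to 10.3 to 27.7 CPM (log2 fold change 4.66, SE 0.36, adjusted p = 6.2e-06). No wild-type liver reached 1 CPM by library size for *Nupr1*, so it entered the test through the Ndrg3 LKO livers alone, and without the filter its log2 fold change was 4.62 (adjusted p = 1.85e-06). The other genes that rose were *Atf3*, *Atf5* and *Slc3a2*, and the one that fell was *Chac1* (log2 fold change -2.3, SE 0.55, adjusted p = 0.00525, edgeR). *Ddit3*, *Trib3*, *Sesn2*, *Ddit4*, *Fgf21*, *Slc7a5* and *Eif4ebp1* did not pass the test. Their log2 fold changes ranged from -0.94 to 1.02 (adjusted p of 0.054 to 0.897, edgeR). *Atf4* mRNA, named after its values were seen, had 112 to 176 CPM in wild-type and 72.5 to 145 CPM in Ndrg3 LKO livers, with a log2 fold change of -0.40 (SE 0.20) that did not pass the test (adjusted p = 0.121, edgeR). Without replicate 5 it was -0.55 (adjusted p = 0.0278).

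**Figure D4:**
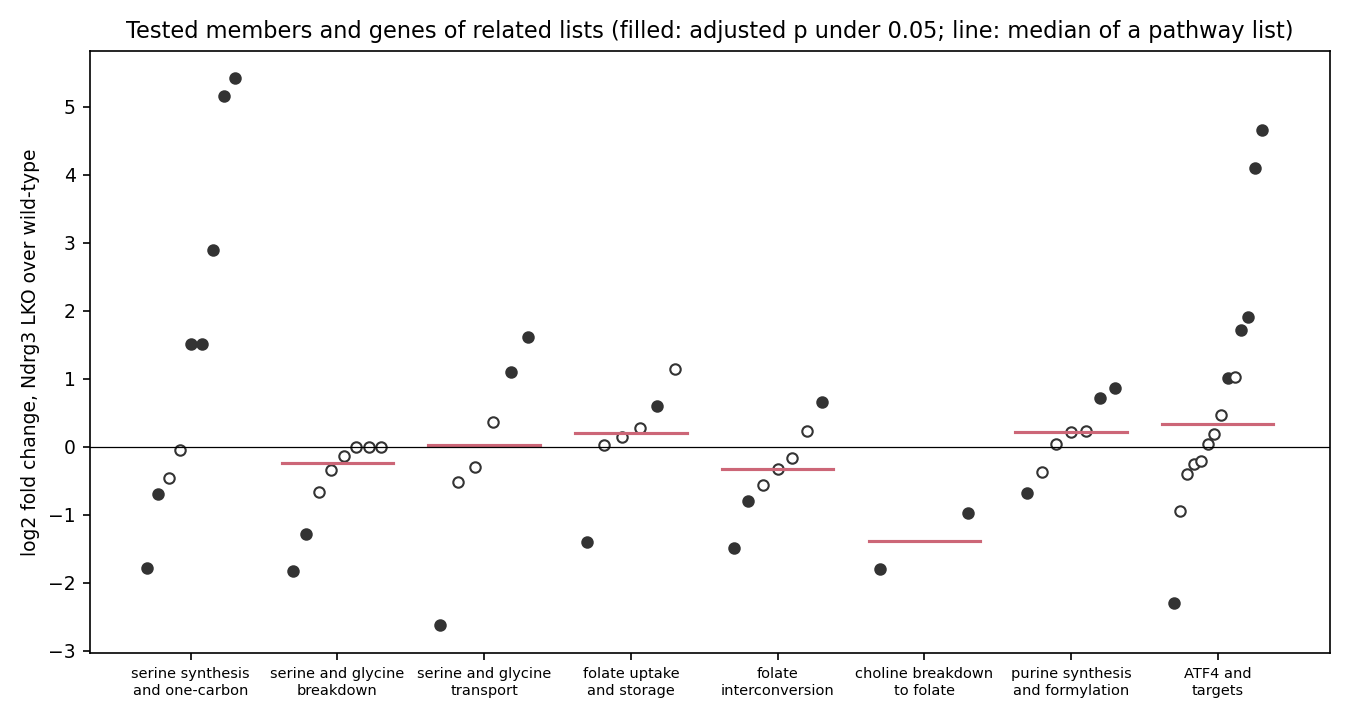
Log2 fold change of Ndrg3 LKO over wild-type livers, on the vertical axis, for the 9 tested genes of serine synthesis and the folate cycle (left column) and for each tested gene of the related lists. Filled points have an edgeR adjusted p under 0.05, and lines are the medians of the related lists. The medians range from -1.39 for the folate-loading dehydrogenases of choline breakdown to 0.33 for ATF4 and its targets.

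Markers of other cell types moved with the genotype, where 25.6% of all tested genes were called higher and 23.0% lower. All 6 macrophage markers rose, and their summed level was 83.9 to 207 CPM in wild-type livers, 155 to 454 CPM in Ndrg3 LKO replicates 1 to 4 and 209 CPM in replicate 5. Of 5 endothelial markers 4 rose, from a sum of 48.2 to 60.5 CPM to 84.3 to 132 CPM, and of 5 stellate cell markers 3 rose, from 14.6 to 39.2 CPM to 30.2 to 45.6 CPM. Of 5 cholangiocyte markers 1 rose and 1 fell, with sums of 38.4 to 71.6 and 50.9 to 219 CPM. The 4 tested genes of dividing cells all rose, from a sum over the list of 3.14 to 6.35 CPM to 9.24 to 72.2 CPM with the upper end in replicate 5. At most 1 wild-type liver reached 1 CPM for *Mki67*, *Top2a* and *Ccnb1*, so these were tested because the Ndrg3 LKO livers were high, and their count says little. Of the 4 genes listed for lymphocytes only *Ptprc* was tested, and it rose as well. It is a gene of leukocytes in general, macrophages among them. The sum over this list was 2.38 to 3.68 and 3.56 to 10.9 CPM, most of it *Ptprc*. *Cd3e*, *Cd8a* and *Cd79a* missed the filter. In the fit without it, their log2 fold changes were 1.335, 1.40 and 1.825 (adjusted p of 0.0427, 0.286 and 0.0411, edgeR). These rest on 11, 8 and 28 counts summed over the wild-type livers, so that the list does not settle whether lymphocytes changed. Hepatocyte markers fell in 5 of 6 cases, all but *Apoc3*, which rose. No marker was at 0 in every liver, and the part of these cell types in the results above was not tested.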

How the data were processed

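RNA of 10 livers, 5 per genotype, was sequenced by the authors as stranded mRNA libraries with paired reads of 100 bases, from RNA with an integrity number above 8.0. Reads were aligned by the authors to mm9 and summarised per gene with STAR, and raw counts for each gene symbol were deposited. The files are labelled CPM but hold whole numbers only, with a different total in each liver. The submitters' notes also name Trim Galore 0.6.4, Cufflinks 2.2.1 and STAR 2.7.3a. The annotation and the strand setting of the counting were not given in the sources used here. The study's expression heatmap used 4 Ndrg3 LKO livers, and all 5 were used here.

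A gene entered the test at 1 CPM or more in 5 or more livers, with edgeR 4.0.16 in R 4.3.3 (TMM, quasi-likelihood test, Benjamini-Hochberg over all genes tested, threshold 0.05). The standard error was the absolute log2 fold change over the root of its F statistic. Ratios and single genes were tested with 2-sided exact permutation tests. The members and the gene lists were chosen with earlier results of these data known. Named were the 10 members, *Ndrg3* and, per list, up to 2 genes with the largest rise and up to 2 with the largest fall that passed the test and had at least 10 CPM in the higher group, together with the 3 genes nearest in profile to the member with the largest rise and to the one with the largest fall. *Sds*, *Atf4*, *Slc1a4*, *Pfas*, *Atf3*, *Atf5*, *Slc3a2*, *Chac1*, *Gart*, *Atic* and *Mtfmt* were named outside this rule, after values were seen. So were *Ddit3*, *Trib3*, *Sesn2*, *Ddit4*, *Fgf21*, *Slc7a5* and *Eif4ebp1*, and *Smcr8*, *Ndufa4l2* and *Gm3329* at the loci of members. The same holds for the markers *Alb*, *Ttr*, *Apoa1*, *Apoc3*, *Fgb*, *Hnf4a*, *Ptprc*, *Cd3e*, *Cd8a*, *Cd79a*, *Mki67*, *Top2a* and *Ccnb1*. Locations came from GENCODE M1 on NCBIM37 (mm9), and promoters from RefSeq. Within groups, the 20 liver pairs differed beyond sampling noise (chi-square per degree of freedom of 25.7 or more), and none were identical. Counts were simulated for 11208 genes of this comparison, of which 200 were changed. There edgeR recovered 92.4% of genes changed 4-fold, 49.3% of those changed 2-fold and 5.97% of those changed 1.5-fold. In the data 5443 genes were called, so the adjusted threshold was stricter in the simulation. These shares therefore do not give the recovery in the data. Alternatives used limma 3.58.1 and DESeq2 1.42.0, median-of-ratios factors, library size alone, other filters and pseudocounts, a replicate block and each liver left out. The fit without Ndrg3 LKO replicate 5 with the filter at 4 livers was added after seeing the data, and its values stand in the report wherever that liver is left out.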

Additional observations from a re-analysis of the deposited data

Results flagged for a closer look

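The 5 livers of each genotype were examined for 37 items, 74 groups in all. The items were the members, *Ndrg3*, the genes named by rule from the lists, the 3 ratios and some genes named after values were seen. *Sds* and *Slc1a4* were among the last, so the tally is not set against the share expected by chance, about 1 in 20. Of the groups, 6 held a liver separated from the rest by more than Dixon's 95% critical value of 0.71. In 5 of them it was Ndrg3 LKO replicate 5. *Aldh1l1* was at 1266 CPM in that liver and at 258 to 475 CPM in the other knockouts. *Ftcd* was at 374 against 92.5 to 144 CPM, *Mthfs* at 16.3 against 5.02 to 8.14 CPM, *Sardh* at 986 against 490 to 524 CPM and *Sds* at 1849 against 102 to 172 CPM. The remaining one was *Slc1a4* in wild-type replicate 3, at 2.23 CPM against 1.35 to 1.55 CPM in the other wild-type livers. For *Aldh1l1*, *Ftcd* and *Sardh* this liver was between the other knockouts and the wild-type livers, for *Mthfs* it was within the wild-type range of 12.7 to 16.7 CPM, and for *Sds* it was above all wild-type livers.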

How the results depend on the processing

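Over 39 results, 729 of 778 alternative values were labelled the same as the main result, as were 33 of 33 values of the compartment ratios. For fold changes and ratios, this label meant the same direction and the same side of the threshold. For the counts of changed genes and of members, it meant a count within a fixed factor of the main one. With library size alone, *Shmt1* turned to 0.48 (adjusted p = 0.00789, edgeR), *Mthfd1* to 0.024, *Atf4* to 0.093 and *Sds* to 0.093. Relative to the median of that fit, *Shmt1* was at -0.084 and *Mthfd1* at -0.53, and 1 member was lower. *Shmt1* was at 0.18 with limma after quantile normalization and at 0.0065 with a mean of at least 5 CPM, where *Phgdh* was not tested. Counting log2 fold changes beyond 1 in size left 2301 changed genes in place of 5443 and 1 lower member. With single livers left out, the changed genes numbered 4431 to 6360, the higher members 4 to 5 and the lower members 2 to 3. The 4 arose because *Phgdh* misses the filter of 5 livers without an Ndrg3 LKO liver, and the 3 because *Mthfd1* passes without replicate 5. *Sds* was at -1.96 without Ndrg3 LKO replicate 5 (-1.925 with the filter kept at 5 livers) and at 0.087 to 0.13 without Ndrg3 LKO replicate 1, 2, 3 or 4. *Mthfd1* also passed with median-of-ratios factors (adjusted p = 0.0481), DESeq2 (0.0288), limma with pseudocounts of 1 (0.0306) and 5 (0.0312), and no filter (0.0440). *Shmt2*, *Mtrr*, *Mthfs*, *Paics* and *Slc1a4* each missed the threshold under at least 1 alternative, *Mtrr* and *Slc1a4* among them with the replicate block (adjusted p of 0.0619 and 0.110, edgeR), *Slc1a4* with limma on any scale tried (0.0882 to 0.218), and *Mthfs* and *Paics* with library size alone (0.146 and 0.374). The cause was not tested. Replicate numbers are shared by both groups, but same-numbered livers did not deviate together (correlations of -0.36 to 0.036, and 0 of 5 wild-type livers best with its own number). A fit with the replicate block called 4412 genes, 4332 of them shared with the fit without it, and 5 members were higher and 2 lower. At these depths, wild-type *Phgdh* and *Aldh1l2* rest on single-digit counts.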

Other observations

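Over the 10 livers, the genes with the profile most like that of *Psat1*, by the root mean square difference of centred log2(TMM CPM + 1) values, were *Jazf1* at 0.248, *Tinag* at 0.351 and *Hist1h1c* at 0.362. *Jazf1* had a mean of 0.702 CPM in wild-type and 32.8 CPM in Ndrg3 LKO livers, *Tinag* 0.0203 and 14.3 CPM, and the histone gene *Hist1h1c* 11.9 and 169 CPM. The wild-type mean of *Tinag* was below the worth of 3 counts in any library (0.0727 to 0.179 CPM), and this gene was tested through the Ndrg3 LKO livers alone. The likeness of *Jazf1* and *Tinag* to *Psat1* thus includes wild-type levels near 0. *Aldh1l1* was most closely followed by *Mpv17l* at 0.164, *Slc8b1* at 0.184 and *Rnd1* at 0.186. *Mpv17l* fell from a mean of 28.2 to 8.48 CPM, the mitochondrial sodium and calcium exchanger gene *Slc8b1* from 85.3 to 23.2 CPM and *Rnd1* from 17.9 to 4.90 CPM.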
